A study of Mus musculus with 6 samples.

Results

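The levels of 10 early response genes were described in 4T1 cells, a cultured mouse mammary carcinoma line, among the 56748 genes listed in the deposited tables. The genes were chosen by symbol: Egr1, Egr2 and Egr3 (early growth response), Ier2, Ier3 and Ier5 (immediate early response), Klf2, Klf4 and Klf6 (Krüppel-like) and Srf. All 10 symbols were found. The control group (n = 3) is labelled only as control, and the treated group (n = 3) received Au/MoS2/Bi2S3 particles with near-infrared (NIR) light, both on the wild-type genotype and both collected at 48 h. Treated cells had grown for 24 h, were given 125 µg/mL of particles overnight, were irradiated for 8 min and were incubated for a further 24 h. All samples carry 1 batch label, cells given particles alone or light alone were not analysed here, and the series text speaks of pooled RNA. The labels do not say that the samples were separate cultures, so p-values here cover the spread among 6 samples, and this spread may be technical.

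Immediate early genes are switched on within a short time of a growth factor, stress or wounding signal, without new protein synthesis. A common route runs from the Ras-ERK kinase cascade to the serum response factor SRF, which binds a DNA element called the CArG box together with ETS-family cofactors or with the actin-sensing MRTF cofactors. EGR proteins are zinc finger transcription factors that in turn act on further genes and on their own corepressors, the NAB proteins. KLF proteins bind GC-rich elements, and the mRNAs of many genes of this class are short-lived. In breast epithelium and mammary tumours some of these genes are read as markers of recent signalling, proliferation or stress, and others are tied to quiescence or differentiation.

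Mean levels of Egr1, Egr2 and Egr3 were higher in treated cells, with Egr1 25.3-fold higher, while Klf2, Klf6, Srf and Ier5 were lower, by 4.27, 1.68, 2.25 and 5.02-fold. Of these last 4, only Klf2 was still called lower with equal FPKM totals or with scaling by reads at genes. The direction of Klf6 turned with equal FPKM totals, and with scaling by reads at genes Klf6 was essentially unchanged. Ier2, Ier3 and Klf4 had overlapping groups and were not called. The test was limma on log2(FPKM + 1), where FPKM is fragments per kilobase of exon, scaled to library size, for genes that reached 1 FPKM in 3 of 6 libraries or in more. Of the 10 genes, 9 were tested, and 6 were called at an adjusted p under 0.05, 2 higher and 4 lower. Among all 11118 genes tested, 56.1% were called, 27.9% higher and 28.3% lower, so a call by itself sets none of these genes apart. Groups did not overlap for 6 of the 9, with 2 higher and 4 lower in treated libraries, against 67.7% of all genes tested, 33.6% higher and 34.1% lower. Egr1 and Egr3 passed the filter only through the treated libraries and had to differ, and Egr2 did not pass it.

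The libraries held 32.6 to 38.1 M (1e6) reads at genes, worked back from the FPKM values. Control libraries had 15829 to 18988 genes above 0 and treated ones 21821 to 22088, and the 100 most abundant genes held 33.0% to 36.1% of the reads in controls and 19.0% to 19.4% in treated libraries. Mitochondrial genes held 0.0421% to 0.854% and 1.29% to 1.40% of the reads. The deposited values imply library sizes of 0.719 to 0.839 times the reads at genes in controls and 1.32 to 1.33 times in treated libraries, and directions are given on that deposited scale. With scaling by reads at genes instead, the median log2 fold change of all genes tested was 0.60, and with equal FPKM totals it was 0.81, against -0.01 as deposited. Of 10 epithelial markers, Epcam, Krt8, Krt18 and Krt19 passed the filter, and Cdh1, Krt14, Krt7, Cldn3, Cldn4 and Cldn7 were under 1 FPKM in every library. Epcam passed it only through the controls (4.43 to 5.74 FPKM) and was at 0.760 to 0.968 FPKM in treated libraries. The summed epithelial level was 1536 to 2262 FPKM in controls and 741.7 to 777.2 in treated samples. Fibroblast markers summed to 204.3 to 1168 FPKM in controls, where control 3 was highest, and to 51.9 to 55.1 in treated samples, carried by Col1a1 and Col3a1, while Col1a2, Dcn, Lum and Thy1 were under 1 FPKM throughout. Leukocyte markers summed to 85.0 to 448.8 and 247.4 to 264.8 FPKM, nearly all Cd68, with Adgre1 and Itgam at 0. Endothelial markers summed to at most 1.16 and 1.77 FPKM. The part of these differences in the results below was not tested, and in bulk RNA fewer cells of a type and less RNA per cell cannot be told apart.

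**Figure D1:**
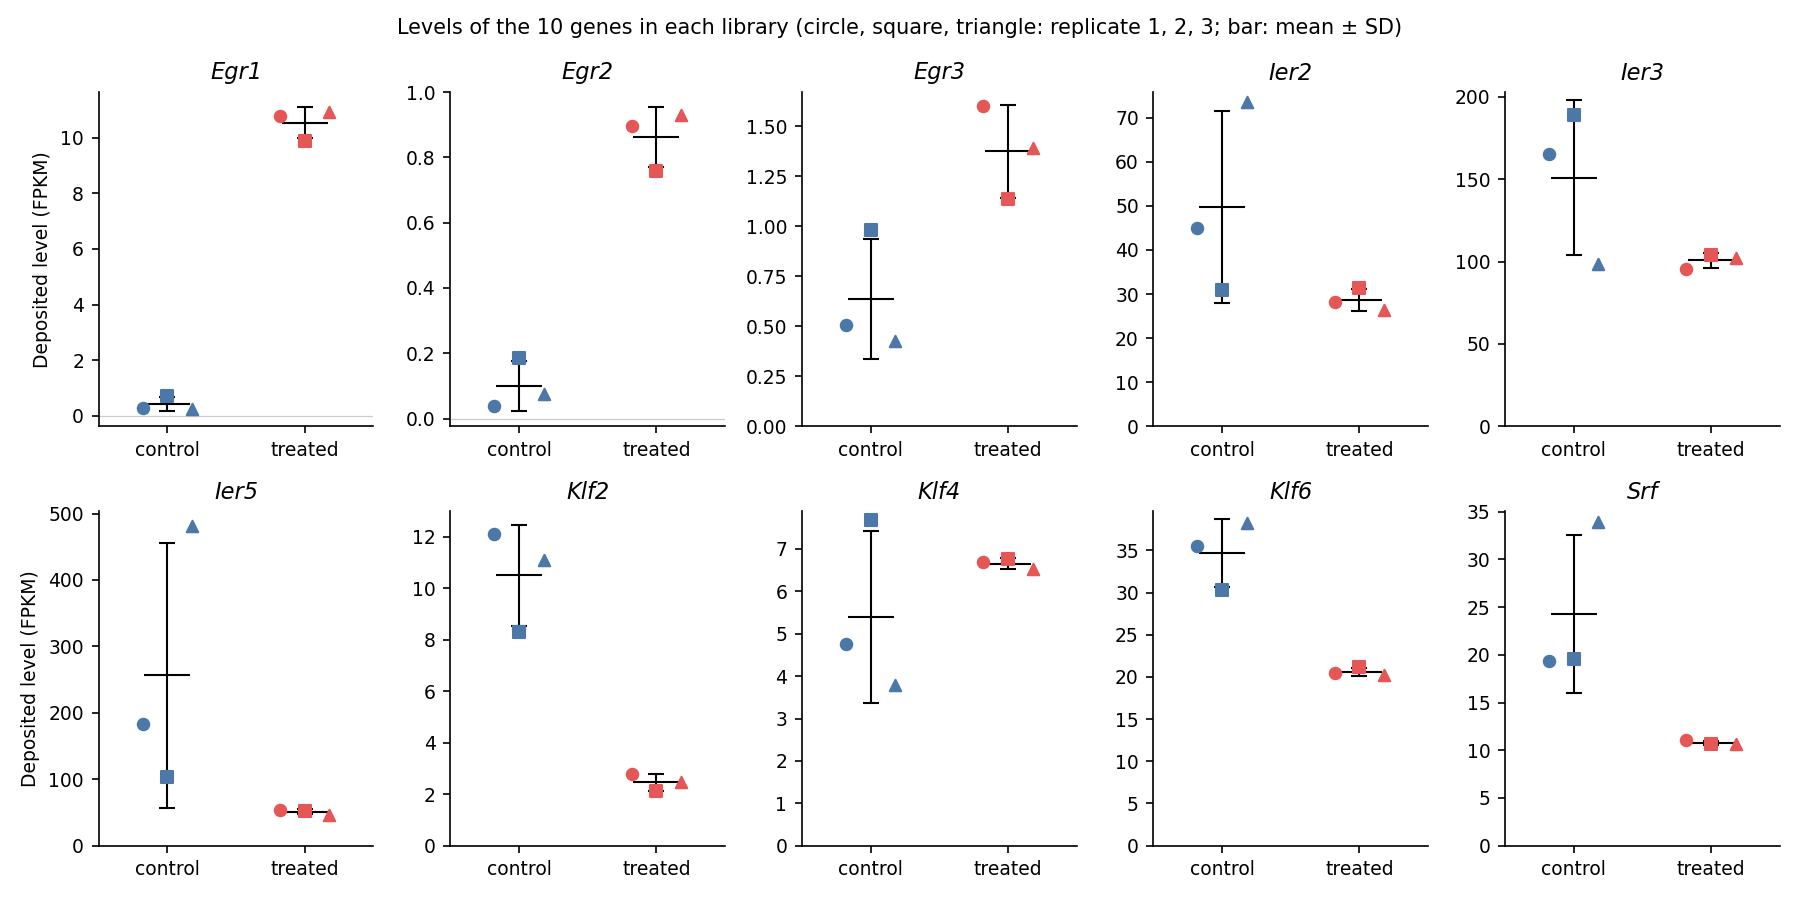
Deposited FPKM (vertical axis, linear, a separate scale for each gene) of the 10 genes in 3 control and 3 treated libraries, with circle, square and triangle for replicates 1, 2 and 3 and bars for mean ± SD. All 3 treated libraries lie above every control for Egr1, Egr2 and Egr3 and below every control for Ier5, Klf2, Klf6 and Srf.

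Egr1 (ENSMUSG00000038418; GRCm38 chromosome 18, 34859823 to 34864984, plus strand), a zinc finger factor that is the usual readout of ERK signalling to SRF, measured 0.299, 0.703 and 0.247 FPKM in controls 1 to 3. It stood at 10.8, 9.90 and 10.9 FPKM in treated libraries 1 to 3. These levels rest on 42, 100 and 26 reads in controls and 2173, 1961 and 2168 in treated libraries. Every treated library was far above every control, and control 2 was the highest of the controls. On the log2 scale the change was 3.04 ± 0.15 SE, with a limma adjusted p = 0.000136, larger than for 99.9% of the genes tested. Against control 2 alone the log2 difference was 2.76, and over all 16 alternatives the value stayed between 2.87 and 4.46.

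Egr2 (ENSMUSG00000037868; chromosome 10, 67535475 to 67542188, plus strand), known for its role in Schwann cells and in hindbrain patterning, was scarce, at 0.0376, 0.186 and 0.0753 FPKM in controls 1 to 3. It reached 0.897, 0.759 and 0.931 FPKM in treated libraries 1 to 3, from 114 to 140 reads, against 4, 20 and 6 reads in the controls. The groups did not overlap and their means differed 8.67-fold. By an exact two-sided permutation test over the 6 samples p was 0.1, the smallest that 3 against 3 samples allow. When every gene above 0 was tested, Egr2 had a limma log2 fold change of 0.76 ± 0.09 SE (adjusted p = 0.00372).

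Egr3 (ENSMUSG00000033730; chromosome 14, 70077203 to 70082614, plus strand), a relative of Egr1 studied in lymphocytes and muscle spindles, measured 0.508, 0.981 and 0.426 FPKM in controls 1 to 3 and 1.60, 1.13 and 1.39 in treated libraries 1 to 3. The lowest treated library was just above control 2. Treated minus control was 0.55 ± 0.15 SE in log2 units (adjusted p = 0.0242, limma). The call was lost without control 1, treated 1 or treated 3 (limma adjusted p = 0.0812, 0.0858 and 0.0747), with no filter (0.0805), with sample weights per group (0.0678) and with quantile normalization (0.462).

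Within the EGR genes the makeup of the pool differed between groups. Egr1 made up 33.0% to 37.6% of the summed FPKM of the 3 genes in controls and 81.2% to 83.9% in treated libraries. Egr3 made up 52.5% to 60.1% in controls, where it was the most abundant of the 3, and 9.63% to 12.1% in treated libraries. The ratio of Egr1 to Egr3, which is free of the scaling between libraries, was 0.629 ± 0.0764 (SD, n = 3) in controls and 7.77 ± 0.995 in treated samples. The fourth gene of the family, Egr4, was listed at 0 in all 6 libraries.

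Ier5 (ENSMUSG00000056708; chromosome 1, 155096361 to 155099636, minus strand) encodes a nuclear protein that acts on heat shock factor 1 with the phosphatase PP2A. Its FPKM values were 183.9, 103.4 and 481.7 in controls 1 to 3, and 54.0, 52.5 and 46.8 in treated libraries 1 to 3. The groups did not overlap, yet the controls differed among themselves by 4.66-fold. On the log2 scale the change was -2.02 ± 0.53 SE, with a limma adjusted p = 0.0186, and -1.42 without control 3. The log2 difference was -1.01 against control 2 alone and -3.21 against control 3 alone. The call was lost without control 1 or without treated 1, 2 or 3 (limma adjusted p between 0.0522 and 0.0619), with no filter (0.0504), and with scaling by reads at genes (log2 fold change -1.28, limma adjusted p = 0.052), equal FPKM totals or quantile normalization.

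Ier3 (ENSMUSG00000003541; chromosome 17, 35821684 to 35822923, plus strand), also called IEX-1, is a stress-induced gene that modulates cell survival and ERK signalling. Its FPKM values were 165.1, 188.9 and 98.3 in controls 1 to 3 and 95.6, 104.0 and 102.3 in treated libraries 1 to 3. Control 3 lay inside the treated range, and the other two controls lay above it. Treated minus control was -0.53 ± 0.25 SE in log2 units (adjusted p = 0.121, limma). Without control 3 it was called lower (-0.81, limma adjusted p = 0.00154), while under 3 other scalings its sign turned.

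Ier2 (ENSMUSG00000053560; chromosome 8, 84661331 to 84662852, minus strand), a short nuclear early response protein, measured 45.0, 30.8 and 73.4 FPKM in controls 1 to 3 and 28.2, 31.4 and 26.3 in treated libraries 1 to 3. Control 2 lay within the treated range. On the log2 scale the change was -0.69 ± 0.30 SE, with a limma adjusted p = 0.0968, and without control 2 it was called lower (-0.98, limma adjusted p = 0.0122). Its reads did not come out whole with GENCODE M21 exon lengths, so no read numbers are given for it.

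Klf2 (ENSMUSG00000055148; chromosome 8, 72319033 to 72321656, plus strand), a factor tied to cell quiescence and to flow sensing in endothelium, measured 12.1, 8.28 and 11.1 FPKM in controls 1 to 3 and 2.77, 2.12 and 2.48 in treated libraries 1 to 3. The reads were 699, 485 and 480 in controls and 230, 173 and 203 in treated libraries. Every treated library was below every control by a wide gap, and the controls differed by no more than 1.46-fold. Treated minus control was -1.72 ± 0.16 SE in log2 units (adjusted p = 0.000531, limma). The call held under all 16 alternatives, with values from -2.04 to -0.91, the last with equal FPKM totals.

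Klf4 (ENSMUSG00000003032; chromosome 4, 55527143 to 55532466, minus strand), one of the factors used to reprogram cells to pluripotency and a regulator of epithelial differentiation, measured 4.76, 7.67 and 3.78 FPKM in controls 1 to 3. It stood at 6.69, 6.75 and 6.52 FPKM in treated libraries 1 to 3, between control 2 and the other controls. On the log2 scale the change was 0.30 ± 0.22 SE, with a limma adjusted p = 0.284. It was called higher without control 2 (0.54, limma adjusted p = 0.00954), with scaling by reads at genes (0.94, 0.0161) and with equal FPKM totals (1.16, 0.00566).

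Klf6 (ENSMUSG00000000078; chromosome 13, 5861482 to 5870394, plus strand), a tumour suppressor candidate in several epithelia, was the most abundant of the 3 KLF genes. Its FPKM values were 35.5, 30.3 and 38.3 in controls 1 to 3 and 20.4, 21.1 and 20.3 in treated libraries 1 to 3, with no overlap. Treated minus control was -0.72 ± 0.12 SE in log2 units (adjusted p = 0.00365, limma). The reads behind these levels were 4874, 4219 and 3937 in controls and 4033, 4102 and 3940 in treated libraries, and with scaling by reads at genes the log2 fold change was 0.00 (limma adjusted p = 0.978) where the median gene stood at 0.60. With equal FPKM totals it was 0.25, and with quantile normalization -0.25 (limma adjusted p = 0.0771).

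Klf4 and Klf2 kept no fixed ratio. The Klf4 to Klf2 ratio of FPKM within a library was 0.393, 0.927 and 0.341 in controls 1 to 3, and 2.42, 3.19 and 2.62 in treated libraries 1 to 3. Klf2 was thus above Klf4 in each control and below it in each treated library, an order that does not depend on how libraries are scaled. Klf6 made up 65.5% to 72.0% of the summed FPKM of the 3 genes in controls and 68.4% to 70.4% in treated libraries.

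Srf (ENSMUSG00000015605; chromosome 17, 46548329 to 46556175, minus strand), the factor that binds the CArG box, measured 19.4, 19.6 and 33.9 FPKM in controls 1 to 3 and 11.0, 10.7 and 10.6 in treated libraries 1 to 3. The treated libraries lay below all controls, and control 3 stood apart from the other controls. On the log2 scale the change was -1.05 ± 0.22 SE, with a limma adjusted p = 0.00869, and -0.80 without control 3. With scaling by reads at genes (-0.35, limma adjusted p = 0.121) and equal FPKM totals (-0.11, 0.57) it was not called. Egr1, often used as a target gene of SRF, went the other way: the Egr1 to Srf ratio was 0.0155, 0.0359 and 0.0073 in controls 1 to 3 and 0.977, 0.926 and 1.03 in treated libraries 1 to 3.

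Promoter windows, 250 bases before to 50 after an annotated RNA start, were taken from RefSeq (GRCm38.p6) and matched 7 of the 10 genes. Egr1, Egr3 and Ier2 had no entry. The CArG box (the name given to CC, then A or T at each of the inner bases, then GG) was searched as letters, on both strands. It was found for Egr2, in 4 of its 5 windows, and for Srf, and in 1.63% of 32817 mouse windows of the same length. The windows of Egr2 and Srf are shown because these genes, which went in opposite directions, both hold the box, printed in capitals. In Srf the boxes lie at -82 to -73 and at -62 to -53 from the start, and in the third window of Egr2 at -72 to -63.
Egr2, chr10:67537619-67537918, plus strand: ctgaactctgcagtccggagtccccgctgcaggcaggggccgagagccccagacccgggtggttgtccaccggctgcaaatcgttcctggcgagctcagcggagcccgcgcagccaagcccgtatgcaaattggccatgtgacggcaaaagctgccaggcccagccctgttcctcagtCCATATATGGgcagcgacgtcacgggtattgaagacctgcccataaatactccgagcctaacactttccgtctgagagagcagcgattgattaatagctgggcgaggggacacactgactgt
Srf, chr17:46556113-46556412, minus strand: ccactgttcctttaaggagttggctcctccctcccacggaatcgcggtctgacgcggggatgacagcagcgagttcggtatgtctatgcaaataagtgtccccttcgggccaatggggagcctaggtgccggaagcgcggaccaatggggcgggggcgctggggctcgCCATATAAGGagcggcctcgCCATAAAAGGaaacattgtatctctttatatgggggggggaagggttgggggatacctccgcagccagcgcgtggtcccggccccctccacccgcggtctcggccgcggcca

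The GC box (GGGCGG, both strands), the kind of element that KLF and SP proteins bind, was found for all 7 genes with a window, in 1 or more of their windows, against 35.6% of all windows. The windows of these genes held 54.0% to 74.3% G and C, against a median of 52.7% over all windows, and Egr2 had 5 windows in which to match. The windows of Klf2 and Ier5 are shown, with that box in capitals, because these genes had the largest decreases. Neither held a CArG box.
Klf2, chr8:72318812-72319111, plus strand: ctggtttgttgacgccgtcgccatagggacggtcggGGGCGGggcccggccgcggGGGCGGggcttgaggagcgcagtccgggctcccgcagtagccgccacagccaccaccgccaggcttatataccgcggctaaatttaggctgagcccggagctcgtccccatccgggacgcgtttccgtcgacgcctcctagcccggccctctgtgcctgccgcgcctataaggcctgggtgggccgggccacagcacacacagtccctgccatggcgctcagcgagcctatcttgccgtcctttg
Ier5, chr1:155099587-155099886, minus strand: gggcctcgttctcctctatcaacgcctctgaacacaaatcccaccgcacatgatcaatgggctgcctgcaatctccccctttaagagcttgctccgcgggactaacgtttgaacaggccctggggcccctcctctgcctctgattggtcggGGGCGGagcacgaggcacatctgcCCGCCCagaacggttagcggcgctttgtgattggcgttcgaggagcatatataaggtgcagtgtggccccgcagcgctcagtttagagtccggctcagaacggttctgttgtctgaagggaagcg

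The other motifs were searched on both strands of the same windows. CCAAT was found for 5 of the 7 genes (37.4% of all windows), TGACG for 4 (20.8%), and GGAA, the core of ETS sites, for 7 (96.0%). TATAAA was found for Srf (13.6%) and the NF-kB site, by name, for Egr2 (5.80%). The EGR site GCGTGGGCG (0.612%), TGACGTCA (1.79%) and the AP-1 site (5.20%) were found for none of the 7. Egr2 was searched in 5 windows, of which windows 3 to 5 overlap and share 1 CArG box, and each other gene in 1. A match is a description of letters only.

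**Figure D2:**
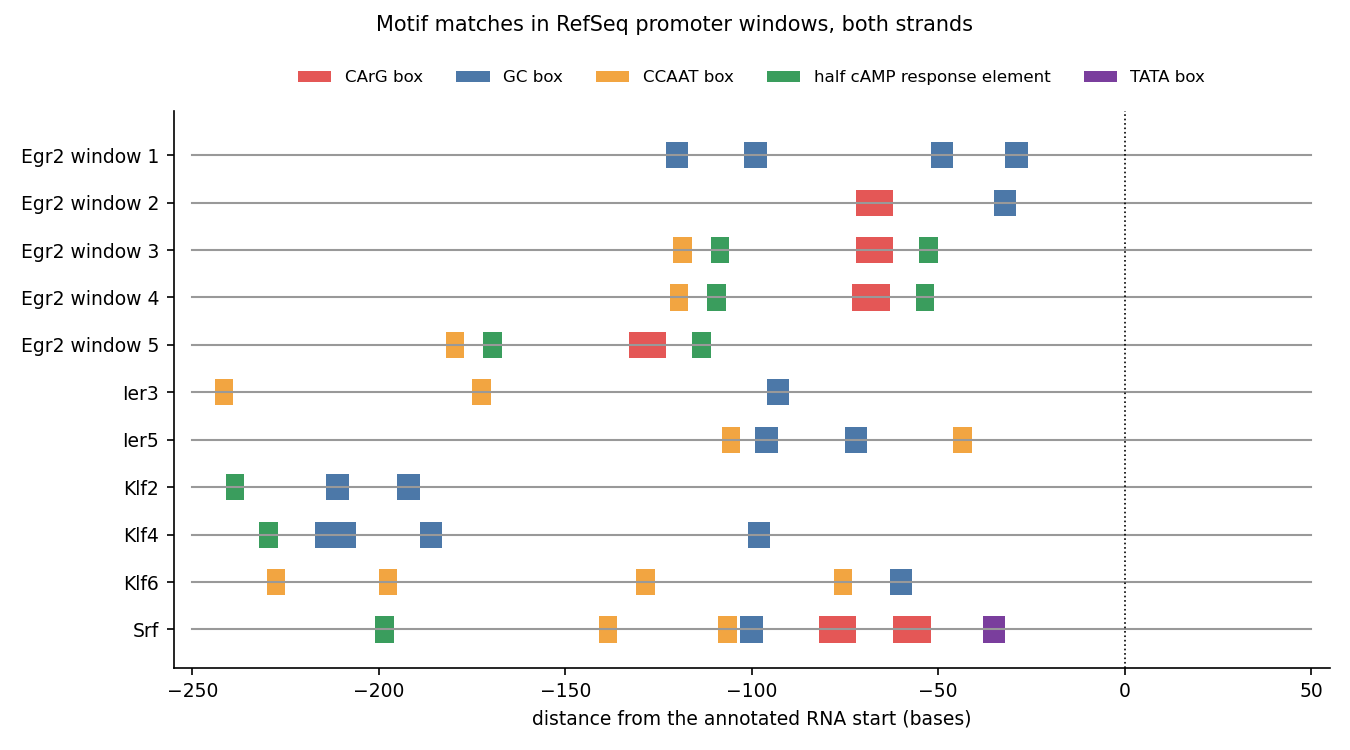
Positions of 5 motifs (coloured blocks, both strands) in the RefSeq promoter windows of 7 genes, against distance from the annotated RNA start in bases. CArG boxes are seen in Egr2 windows 2 to 5 and, as a pair, in Srf, and GC boxes in at least 1 window of each gene.

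**Figure D3:**
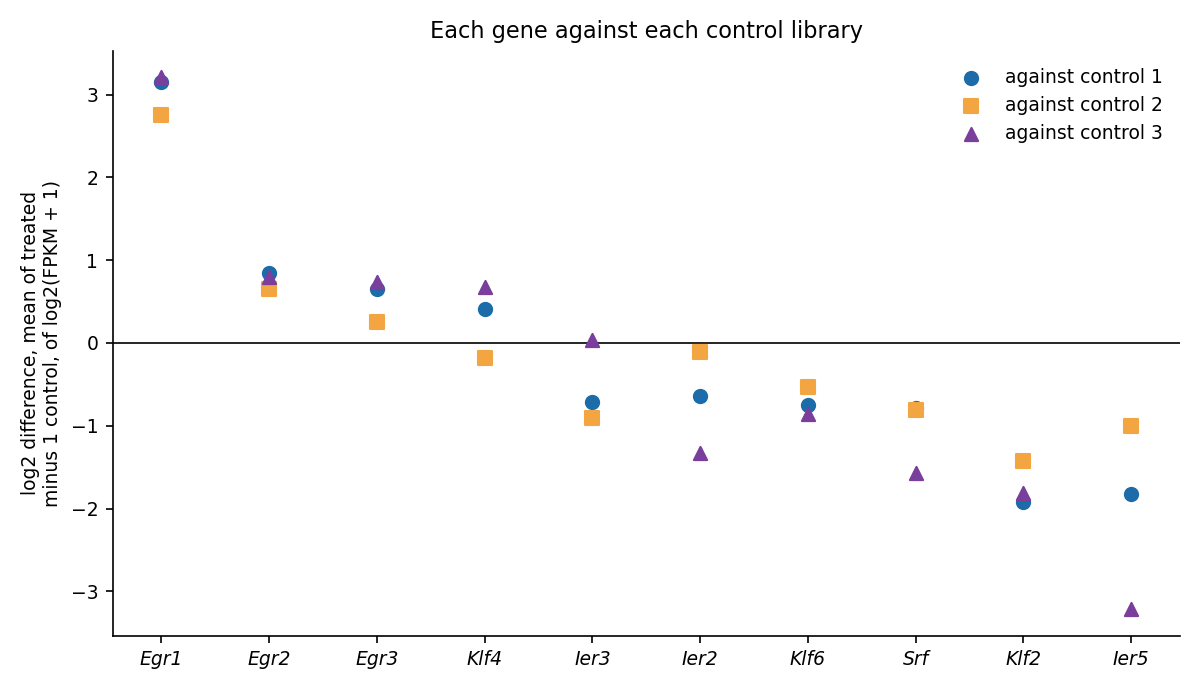
Difference between the mean of the treated libraries and each single control library (vertical axis, log2 units of log2(FPKM + 1)) for the 10 genes, ordered by their mean. Egr1 runs from 2.76 to 3.21, Ier5 runs from -1.01 to -3.21, and the points of Klf4 and Ier3 fall on both sides of 0.

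The coefficient of variation was larger among controls than among treated libraries for all 10 genes, while the SD of Egr2 was 0.0769 FPKM in controls and 0.0912 in treated libraries. The coefficient ran from 11.6% (Klf6) to 77.7% (Ier5) in controls and from 1.85% (Klf4) to 17.0% (Egr3) in treated libraries. Over all genes tested the median SD on the log2 scale was 0.27 in controls and 0.07 in treated libraries. Control 2 was the control nearest to the treated mean for 8 of the 10 genes, and for 48.4% of all genes tested. The exceptions were Ier3, where control 3 was nearest, and Srf, where control 1 was. Of the controls, control 2 also had the most genes above 0 (18988) and the largest mitochondrial share of reads (0.854%). A link to the 10 genes was not tested. Control 3 was the highest control for Ier2, Ier5, Klf6 and Srf, and for 43.9% of all genes tested. Control 2 was the highest for Egr1, Egr2, Egr3, Ier3 and Klf4 (39.3% of all genes tested), and control 1 for Klf2 (16.9%). By mean FPKM, Ier2, Ier3, Ier5, Klf2, Klf6 and Srf were lower in treated cells.

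The order of the per-length levels also differed. In controls it ran Ier5, Ier3, Ier2, Klf6, Srf, Klf2, Klf4, Egr3, Egr1 and Egr2, with ranges that overlapped between Ier5 and Ier3, Ier2 and Klf6, Klf6 and Srf, and Egr3 and Egr1. In treated libraries it ran Ier3, Ier5, Ier2, Klf6, Srf, Egr1, Klf4, Klf2, Egr3 and Egr2, and of the neighbours only Srf and Egr1 overlapped. Mean levels in treated libraries reached from 0.863 FPKM for Egr2 to 100.6 for Ier3. Egr1 was in place 9 of 10 in controls and in place 6 in treated libraries.

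**Figure D4:**
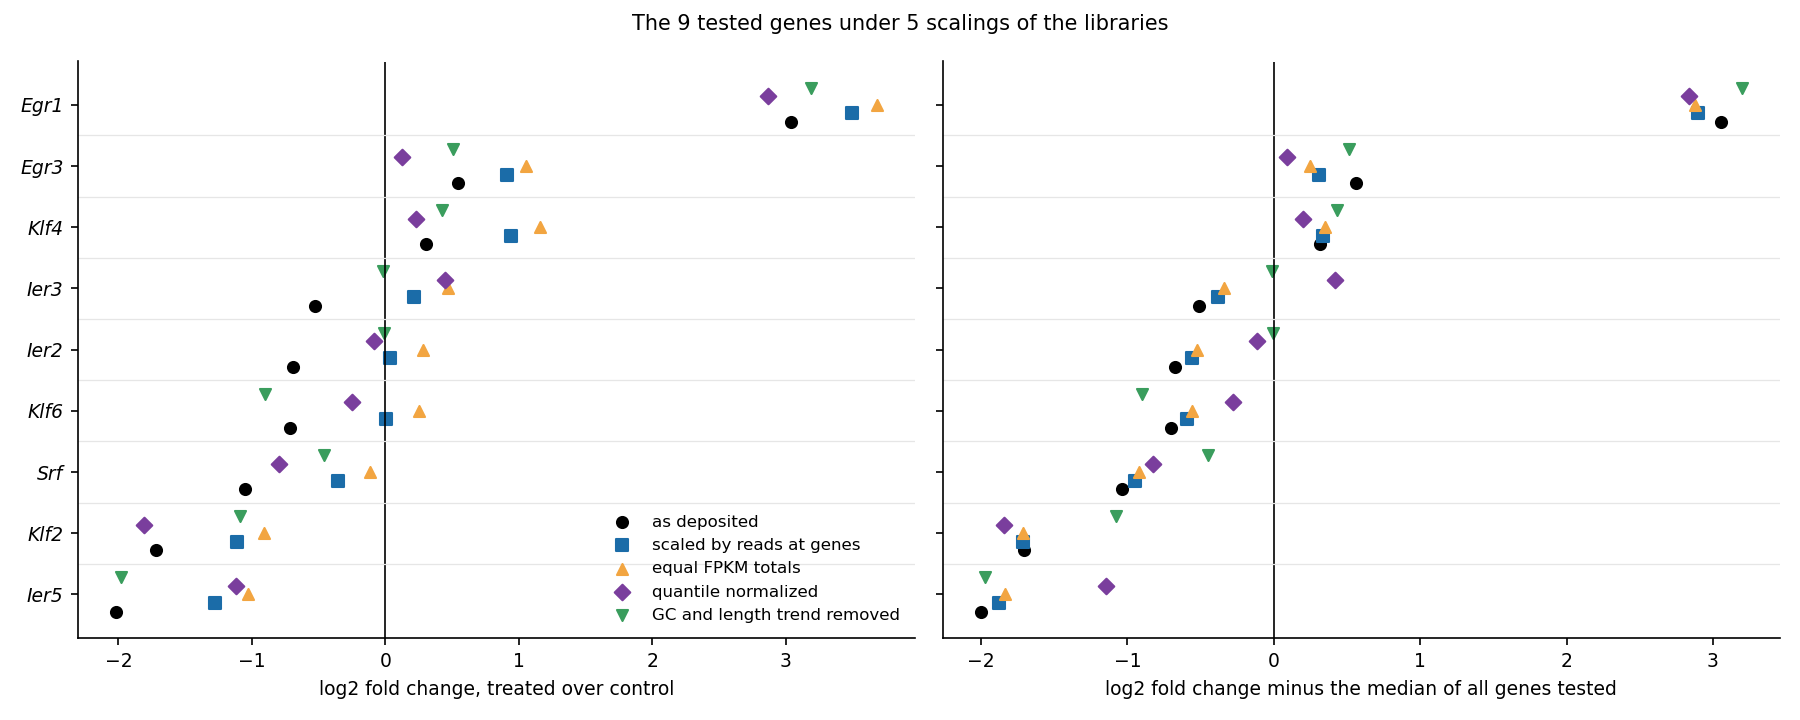
Log2 fold change of the 9 tested genes (left, horizontal axis) under the deposited scaling and 4 others, and the same after the median of all genes tested is subtracted (right). Egr1 is above and Klf2, Ier5 and Srf are below 0 under all 5, Egr3 and Klf4 are above 0 under all 5, while Ier2, Ier3 and Klf6 cross 0 on the left.

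Values relative to the median gene moved less between the scaling by reads and the deposited scaling. With scaling by reads at genes, Egr1 stood 2.90 above the median on the log2 scale, and Klf2 stood at -1.71, against 3.05 and -1.71 as deposited. Srf stood at -0.95, Klf6 at -0.60 and Ier5 at -1.88 on the same relative scale. The relative position of Ier3 turned, from -0.51 as deposited to 0.42 with quantile normalization. With the trend in GC content and exon length removed, Klf6 and Srf stood at -0.90 and -0.45 relative to the median and were still called, while Ier2 and Ier3 stood at -0.0047 and -0.012.

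The genes were also compact. Their spans ran from 1240 bases (Ier3) to 8913 bases (Klf6), against a median of 20185 bases over the genes tested. Ier2 and Ier5 consist of a single exon block, as do 10.1% of the genes tested, and Srf has 7 blocks against a median of 9. No exon of the 10 genes overlapped an exon of another gene in GENCODE M21.

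Genes related by family or pathway were taken from 9 lists and read against the same 56.1% called. Of 16 other EGR, IER and KLF family genes 10 were tested, and 4 were higher (Klf3, Klf9, Klf10 and Klf13) and 2 lower (Ier5l and Klf16), with a median log2 fold change of 0.49 beside -0.01 over all genes tested. With equal FPKM totals 8 were higher and 1 lower, with scaling by reads at genes 7 and 1, and without control 2 the higher count was 6. Klf10, a TGF-beta induced member, rose from 2.01 ± 0.249 to 9.20 ± 0.193 FPKM (SD, n = 3 each; limma adjusted p = 0.000207). Ier5l, the paralog of Ier5, fell from 23.1 ± 2.18 to 4.31 ± 0.640 FPKM (SD, n = 3 each; limma adjusted p = 0.000231). Unlike Ier5 it varied little between controls, 20.8 to 25.2 FPKM.

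Of 16 AP-1 and other immediate early genes tested, 3 were higher (Fosl1, Fosl2 and Arc) and 8 lower (Fos, Jun, Jund, Maff, Myc, Nr4a1, Ccn1 and Csrnp1), with a median of -0.68. That balance turned with equal FPKM totals (7 higher, 3 lower) and with scaling by reads at genes (7 and 6), and leaving out 1 library gave 2 to 4 higher and 8 to 9 lower. Arc, an activity-regulated cytoskeletal gene, rose 4.68-fold, from 1.65 to 7.72 FPKM (limma adjusted p = 0.000253). Ccn1, a secreted matrix protein gene, fell 5.81-fold, from 281.1 to 48.4 FPKM (limma adjusted p = 0.00019). The Egr1 to Fos ratio was 0.0129 to 0.0259 in controls and 1.78 to 2.02 in treated libraries, with Egr1 called higher and Fos lower.

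Of 5 SRF cofactor genes tested, 3 were higher (Elk3, Mrtfa and Mrtfb) and 0 lower, with a median of 1.36, and 5 were higher with equal FPKM totals or with scaling by reads at genes. Mrtfa, the actin-sensing cofactor, rose from 1.94 to 7.34 FPKM (limma adjusted p = 0.000344), and its ratio to Srf went from 0.0486 to 0.120 in controls to 0.672 to 0.700 in treated libraries. Of 12 cytoskeletal SRF-MRTF targets tested, 2 were higher (Actb and Flna) and 3 lower (Vcl, Cnn2 and Fhl2), with a median of -0.42. The lower count fell to 0 without control 1 or any 1 treated library, with quantile normalization, with equal FPKM totals and with scaling by reads at genes, fell to 1 with no filter, and was 5 without control 2 and 6 without control 3. The higher count was 6 with equal FPKM totals. Actb, cytoplasmic beta actin, rose from 227.0 to 431.2 FPKM (limma adjusted p = 0.00143). Fhl2 fell from 24.9 to 17.9 FPKM (limma adjusted p = 0.021), a direction that turned with equal FPKM totals and with scaling by reads at genes.

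Of 15 genes of the Ras-ERK cascade tested, 5 were higher and 4 lower (median 0.06), and of 6 of the MEK5-ERK5-MEF2 arm, which lies upstream of Klf2, 3 were higher and 0 lower (median 0.43). In the cascade 2 were higher without control 1 or any 1 treated library, and 2 were lower without control 1 or treated 1 and 1 without treated 2 or treated 3. There were 3 higher with no filter, a filter at 5 FPKM, sample weights per group or the GC and length trend removed, and 2 lower with quantile normalization. The cascade had 11 higher and 0 lower with equal FPKM totals and 10 and 0 with scaling by reads at genes, and the ERK5 arm had 6 higher under both. Rps6ka3, an ERK-activated kinase, rose from 2.25 to 5.88 FPKM (limma adjusted p = 0.000808), and Mapk7, which encodes ERK5, rose from 4.42 to 7.48 FPKM (limma adjusted p = 0.00331). Klf2 was lower, and a link between Mapk7 mRNA and Klf2 was not tested. Of 12 ERK feedback genes, 5 were higher, among them Spred2 (5.60 to 23.2 FPKM, limma adjusted p = 0.000381), and 4 lower, among them the phosphatase gene Dusp1 (101.9 to 26.8 FPKM, limma adjusted p = 0.000181). With equal FPKM totals or with scaling by reads at genes 7 feedback genes were higher and 1 lower.

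Of 13 EGR corepressors and targets tested, 2 were higher (Nab2 and F3) and 5 lower (Tgfb1, Fn1, Gdf15, Vegfa and Pdgfa), with a median of -0.19. With equal FPKM totals the counts were 7 higher and 1 lower, and with scaling by reads at genes 6 and 1. The higher count was 1 without control 1 or any 1 treated library, 4 without control 2 and 3 without control 3, and quantile normalization left 2 lower. Nab2, the corepressor that EGR proteins induce, rose from 3.87 to 7.24 FPKM (limma adjusted p = 0.00443). Tgfb1 fell from 83.4 to 43.1 FPKM (limma adjusted p = 0.00327), a direction that turned with equal FPKM totals. Of 12 genes of AU-rich mRNA decay, 5 were higher and 2 lower (median 0.09). The higher count fell to 2 without treated 3 or with the GC and length trend removed, and to 3 without control 1, treated 1 or treated 2. It was 9, with 0 lower, with equal FPKM totals, and 7, with 1 lower, with scaling by reads at genes, and 1 was lower without treated 3 or with quantile normalization. The deadenylase gene Cnot6 rose from 8.55 to 21.3 FPKM (limma adjusted p = 0.000764), and Zfp36, which encodes the decay factor tristetraprolin, fell from 69.5 to 28.1 FPKM (limma adjusted p = 0.000675).

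**Figure D5:**
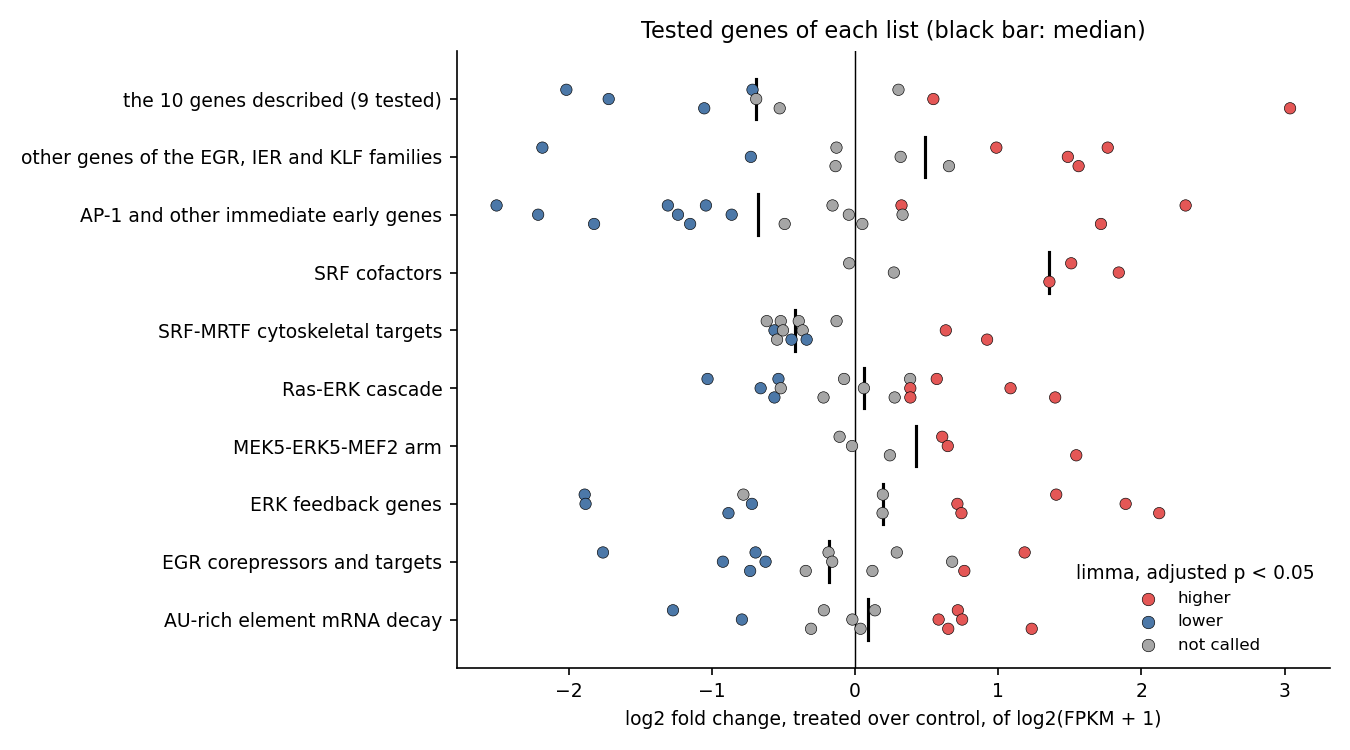
Log2 fold change (horizontal axis, treated over control) of each tested gene in the 9 lists and among the genes described, coloured by limma call, with a black bar at the median. Most lists hold genes on both sides of 0, the SRF cofactor median is at 1.36, and Egr1 at 3.04 is the highest point.

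The genes whose pattern over the 6 libraries was nearest to Egr1, by Euclidean distance of centred log2(FPKM + 1) among 6332 genes, were Angptl4 (0.534), 1700017B05Rik (0.671) and Srxn1 (0.676). Angptl4 measured 1.05, 1.24 and 0.615 FPKM in controls 1 to 3 and 18.9, 20.7 and 19.3 in treated libraries 1 to 3. The genes nearest to Ier5 were Dusp2 (0.205), Fbxo2 (0.206) and 1110065P20Rik (0.225). Dusp2 measured 80.5, 48.9 and 230.6 FPKM in controls 1 to 3 and 26.9, 27.4 and 22.7 in treated libraries 1 to 3. All of these genes were picked by distance over these same libraries, so their likeness to Egr1 or to Ier5 follows from the choice. Like Egr1, 1700017B05Rik passed the filter only through the treated libraries and had to differ.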

How the data were processed

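RNA-seq of poly-T selected mRNA was deposited for 6 samples. Per the file headers the authors deposited FPKM values per gene. For the aligner, the counter and the genome build, the answer was not given in the sources used here. All 6 value columns were joined on gene identifier, and 0 other value columns were found. The genes and lists were chosen with earlier results of these data known. Genes that reached 1 FPKM in 3 libraries or in more were tested on log2(FPKM + 1) with limma 3.58.1 in R 4.3.3 (trended variance, group only, Benjamini-Hochberg over all genes tested). A trial of the fit on simulated data gave both groups the same spread, unlike these data, so it does not vouch for the calls here. A fold change on this scale understates that of low genes, and fold values of means are of FPKM without a pseudocount. Reads were worked back from the FPKM steps and GENCODE M21 exon lengths: 92.3% to 93.4% of values under 200 reads came out whole within 0.02 reads. The step taken as 1 read allows for single mates, so a fragment counted by both mates gives more than 1 read. The fragments behind a level can thus be fewer than its reads. The reads worked back served for library depth, for scaling and to show the reads behind single genes, and were not themselves tested. Named genes were the 10 genes, the called gene with the smallest p in each direction of each list, the 3 genes nearest in pattern to the member with the largest rise and to that with the largest fall (means of 5 FPKM or more), and Epcam, Krt8 and Krt18. A gene that this rule names is not reported here. The 16 alternatives covered the pseudocount, the filter, scaling, GC and length, the variance model, the replicate number and each sample left out. Tables were joined with pandas 2.3.3 and numpy 2.4.6, and the exact test used scipy 1.17.1.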

Additional observations from a re-analysis of the deposited data

How the results depend on the processing

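Of 34 results on single genes, 18 kept direction and call under every alternative run, Egr1 and Klf2 among the 10 genes. Over all genes, 3099 were higher and 3141 lower. A filter at 5 FPKM gave 1385 higher, equal FPKM totals 7172 higher and 736 lower, and scaling by reads at genes 6032 higher and 1149 lower, so that 35.5%, 90.7% and 84.0% of calls were higher, against 49.7%. With no filter 27756 genes were tested, 4075 higher and 2719 lower. Leaving out 1 sample gave 2279 to 3634 higher and 2140 to 3778 lower. Among the 10 genes, 2 were higher and 4 lower. The filter at 5 FPKM, quantile normalization, sample weights per group and the replicate block each left 1 higher, equal FPKM totals and scaling by reads each left 1 lower, and quantile normalization left 2 lower. Leaving out 1 sample gave 1 to 3 higher and 3 to 5 lower. Over the 9 lists 32 were higher and 28 lower, with equal FPKM totals 66 and 6, with scaling by reads 58 and 10, and without 1 sample 24 to 40 and 19 to 34. Signs turned with equal FPKM totals for Ier2 (0.28), Ier3 (0.47), Klf6 (0.25), Fhl2 (0.51), Tgfb1 (0.061) and Krt8 (0.55), with scaling by reads for Ier2 (0.037), Ier3 (0.21), Klf6 (0.0035), Fhl2 (0.27) and Krt8 (0.30), and with quantile normalization for Ier3 (0.45) and Krt8 (0.76). The median log2 fold change of all genes tested moved to 0.81 with equal FPKM totals and 0.60 with scaling by reads at genes. With quantile normalization it was 0.03, against -0.01 as deposited. The cause of the sign turns was not tested. The replicate block gave 2618 higher and 2669 lower, an adjusted p of 0.0565 for Egr3 (limma), 0 lower among the cytoskeletal SRF-MRTF targets and 3 higher in the Ras-ERK cascade. Deviations of same-numbered samples from their group means correlated at -0.054, -0.11 and -0.14, and those of differently numbered samples at -0.013 to 0.13. With deviations from means of only 3 samples a group, these values cannot decide whether the samples were paired. Low control reads limit Egr1, Egr2 and Egr3, and 3 samples a group limit every call.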
